A study of Mus musculus with 2 samples.

Results

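The G protein and cyclic AMP (cAMP) signalling families were examined in a list of N6-methyladenosine (m6A) sites from pancreatic islets of 2-week-old 129sv mice. All sites whose gene symbol begins with Gna, Gnb, Gng, Rgs, Adcy, Pde, Akap, Rapgef, Creb or Crtc and goes on with a number (for Gna also a letter) were taken. This gave 90 of 8987 sites, on 45 of 4953 genes with a site. In the assay, fragmented RNA was pulled down with an antibody against m6A (the IP) and sequenced beside RNA that had not been pulled down (the input). There was 1 IP library and 1 input library, both from islets of the same strain and age with no treatment named in the labels, so no value carries a replicate error and no test between samples was possible. The sources used here do not say how many animals were used or whether they were pooled.

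In this pathway a hormone receptor acts on a heterotrimeric G protein made of an alpha, a beta and a gamma subunit. The alpha subunit then stimulates or inhibits adenylyl cyclase, which makes cAMP, or activates phospholipase C, while RGS proteins speed the return of the alpha subunit to its inactive state. Phosphodiesterases degrade cAMP and cGMP, A-kinase anchoring proteins (AKAPs) hold protein kinase A at defined places in the cell, and CREB with its CRTC coactivators carries the signal to transcription. In beta cells cAMP is known to amplify insulin secretion, and incretin hormones act through it.

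The authors' deposited table gives each site a fold, which is the linear ratio of IP over the background that the peak caller takes from the input, a score, which rises as the peak caller's p falls (10 times its minus log10), and a false discovery rate (FDR), read as percent. The member sites resembled the list as a whole. Their median fold was 7.03, with quartiles of 5.54 and 9.90, against 7.13, 5.47 and 9.87 for all sites. A fold of at least 10 was reached by 22 member sites (24.4%), beside 24.6% of all sites. The FDR was below 100% for 23 member sites (25.6%), beside 25.7% of all sites. The remaining 67 member sites had an FDR of 100%. The lowest member value was 27.16%, which was also the lowest of the whole list. So neither a member site nor any other site of the list would pass a conventional limit on the FDR. A score of at least 100, which stands for a p of at most 1e-10, was held by 52 member sites (57.8%), beside 62.1% of all sites. Median site length was 211 bases in both. Read depth is unknown, because the table holds no counts.

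The 2 strongest member sites lay at annotated transcription starts, and the sequence at such starts is shown because sites there had higher folds than other member sites. Starts were taken from the RefSeq promoter table (GRCm38.p6), which held a start for 39 of the 45 genes under their own or their current symbol. The next lines give transcribed bases of the 7 genes whose site covers a start with a fold of at least 10, followed by the 2 genes with the sequence GGAC, the core of the usual m6A motif, in the first 50 transcribed bases. Each run is 30 bases, 5′ to 3′ on the transcribed strand. The first transcribed base and each GGAC are in capitals, and the Crtc3 run covers transcribed bases 18 to 47 and so has no start base.
Gnb1, chr4:155491361-155491390, plus strand: Gcaggggccgccgcgcccatcctgatggct
Rapgef1, chr2:29619720-29619749, plus strand: Gggcttccggcaggtggcgccgtggccgcg
Gnai1, chr5:18360384-18360413, minus strand: Acgggcagctgcggtggcggcggcggcggc
Creb1, chr1:64532804-64532833, plus strand: Tcggcactgggcggcgctggctggctccct
Gna11, chr10:81545133-81545162, minus strand: Gcgcgcagccgtgcggcccctcccattggc
Gna13, chr11:109362794-109362823, plus strand: Accctcccccggccggcgcggcccgccctg
Rgs7, chr1:175492516-175492545, minus strand: Agtcgcgcgcgcacgggccaggcgtctcga
Crtc3, chr7:80688831-80688860, minus strand: gggtcgcgccggaGGACaggtttcgggcgg
Akap10, chr11:61930228-61930257, minus strand: CtcccgtgaagccccgcgcgcGGACGGACc

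These leaders were rich in G and C. Over the first 50 transcribed bases the G and C content of the 14 member sites at a start had a median of 78%, with a range from 42% to 88%. The median was 70% for all 1407 sites of the list that cover a start and 56% for all 32851 starts in the table. GGAC, searched on the transcribed strand only, was present in 2 of the 14 member windows (14.3%), in 19.5% of the windows under all sites at a start and in 18.9% of all windows of that length. The rest of each site was not searched for GGAC, and the member sites at a start had a median length of 278 bases. Other forms of the motif were not counted. The start base was G in 8 of the 14 and A in 4. Shares in the 14 were 57.1% and 28.6%, against 52.3% and 23.9% under all sites at a start and 35.6% and 34.4% among all annotated starts. How base composition bears on the fold was not tested.

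Of the 81 member sites that could be placed against a start, 14 (17.3%) covered one, beside 19.5% of 7197 placed sites in the list. Their median fold was 10.355 (from 5.72 to 79.99), against 6.79 for the other 67 placed member sites, and 7 of the 14 had a fold of at least 10 against 12 of the 67. The whole list showed the same order, with medians of 8.77 and 6.83 and shares of 41.3% and 20.9%, so the difference was not particular to these families. In 9 of the 14 the 5′ edge of the site was exactly the annotated start base (11.1% of placed member sites, beside 12.7% of all placed sites). In the other 5 (Akap2, Akap9, Crtc1, Gna11 and Gng10) the site began upstream of that base. The starts covered on Akap2 and Akap11 lay inside the annotated gene. In 8 member genes with a site at a start and at least 1 other, the site at the start had the higher fold in 6 (Gnb1, Rapgef1, Gnai1, Creb1, Gna11 and Crtc1) and a lower one in Rgs7 and Akap9. Across the list this was so in 439 of 682 such genes (64.4%).

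**Figure D1:**
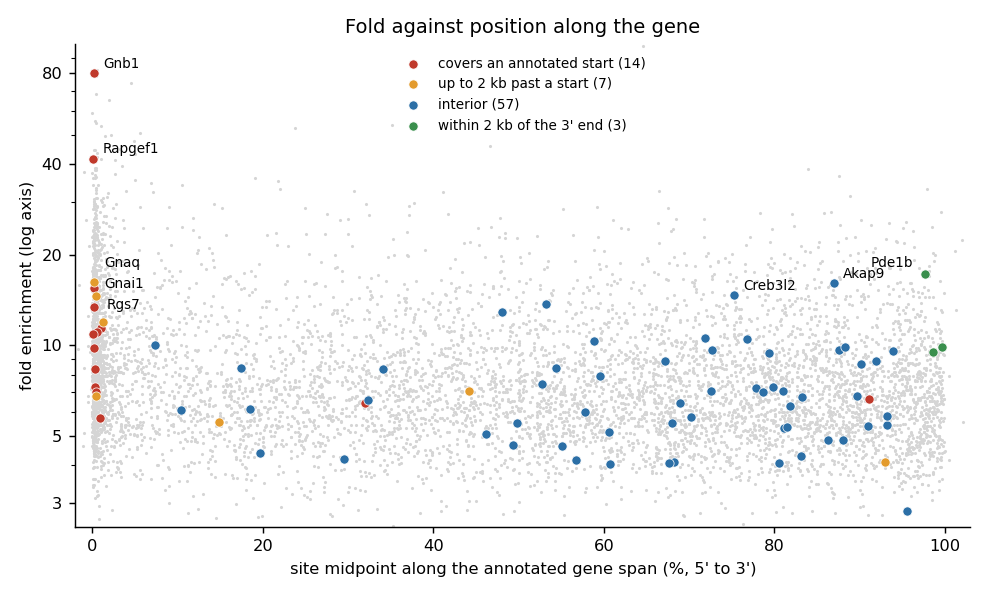
Fold enrichment (log axis) against the midpoint of each site along its gene, in percent of the annotated span from the 5′ end. Coloured points are the 81 placed member sites and grey points the other placed sites of the list with a fold from 2.5 to 100. The 2 highest member sites, on Gnb1 and Rapgef1, lie at the 5′ end, and the interior member sites reach at most 16.09.

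A further 57 placed member sites (70.4%) lay in the interior of the gene, beside 62.3% of all placed sites. Interior means more than 2000 bases past a start and from the 3′ end of the span. The median fold of these 57 was 6.57, against 6.74 for all interior sites of the list. Another 7 (8.64%, beside 8.99% of all placed sites) began within 2000 bases past a start, among them Gnaq and Adcy5. The last 3 (3.7%, beside 9.16%) ended within 2000 bases of the 3′ end of the span, on Pde1b, Rgs9 and Akap7. The median member site lay 60.8% along the span, against 49.7% for all placed sites. The 9 sites on Akap12, Creb3l1, Gnai2, Gnaz, Pde3a and Pde3b were not placed. Exons were not used here, so whether an interior site is exonic or intronic is not stated.

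**Figure D2:**
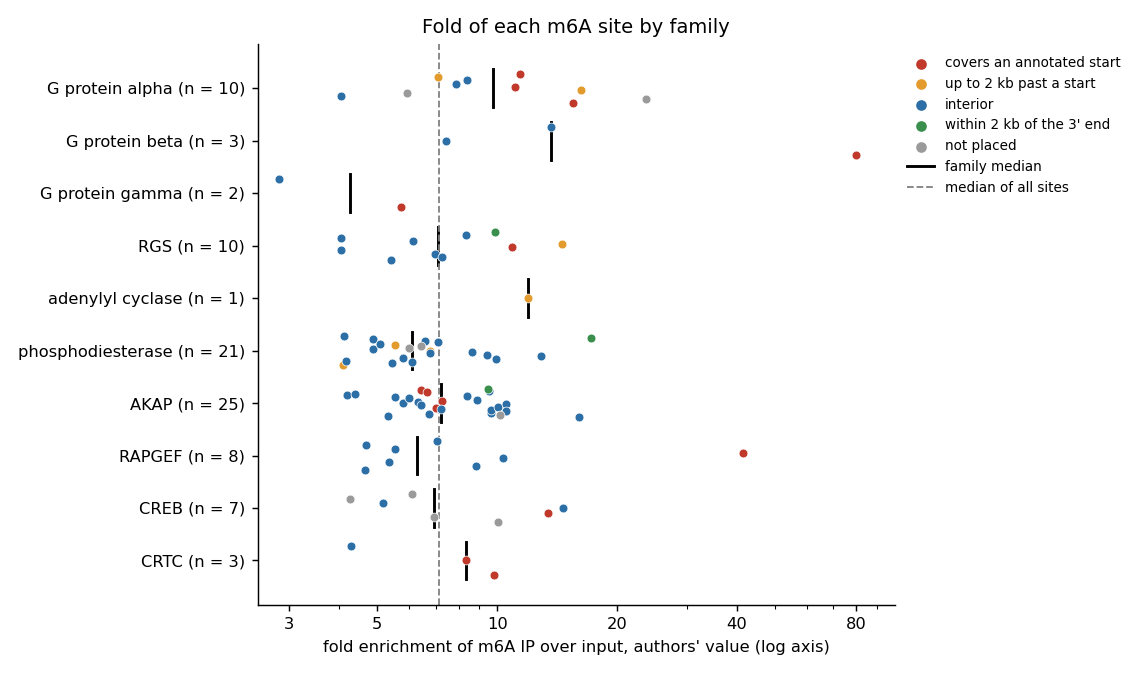
Fold of each of the 90 member sites (log axis) in its family, with n the number of sites, a black bar at the family median and a dashed line at 7.13, the median of all sites. Colours give the position of the site against annotated starts. G protein alpha sites have a median of 9.745 and phosphodiesterase sites one of 6.12.

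Of 16 annotated alpha subunit genes 7 had a site (43.8%, beside 22.2% of all protein-coding genes). A fold of at least 10 was reached by 5 of their 10 sites (50%, beside 24.6% of all sites). Gnai2, which inhibits adenylyl cyclase, had a fold of 23.62 on 243 bases (chromosome 9, 107635100 to 107635342), at percentile 97.5 of all sites but with an FDR of 100%, and its upper edge lay 49 bases inside the annotated span. Gnaq, which activates phospholipase C beta, had a fold of 16.24 (chromosome 19, 16132831 to 16133461) beginning 147 bases past the start. Gnai1, another inhibitory subunit, had 15.55 at its start (chromosome 5, 18360052 to 18360413) and 8.41 at an interior site.

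Gna11, a close relative of Gnaq, had folds of 11.40 at its start (chromosome 10, 81544792 to 81545190) and 4.04 in the interior. Gna13, a subunit that acts on the cytoskeleton, had 11.08 at its start. The cone transducin Gnat2 had 7.08 and 7.90, and Gnaz, an inhibitory subunit of neurons, had 5.93 on a site of 66 bases that also lies within the span of Rsph14. The FDR was below 100% for Gnaq, Gnai1, Gna11 and Gna13, at 67.65% to 91.67%. Gna12, Gna14, Gna15 and Gnai3 were among the 9 genes without a site in the list analysed here, as was Gnas, the stimulatory subunit, which was singled out after the values were seen. Input levels were not used here, so a transcript without m6A and one with too few reads cannot be told apart.

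Gnb1, the beta subunit found in many G protein complexes, held the strongest site of all member genes. Its fold of 79.99 on 220 bases (chromosome 4, 155491361 to 155491580) ranked 9th among all 8987 sites. Its FDR of 27.16% was the lowest value in the list, and its score of 3100 was shared by 119 sites of the list. A second Gnb1 site of 97 bases, 36052 bases past the start (chromosome 4, 155527413 to 155527509), had a fold of 13.69 and an FDR of 61.11%. Gnb1 has copies that the RefSeq table annotates as pseudogenes, so reads may be shared with them, and the sources used here do not say how such reads were counted. Gnb5, which pairs with a subclass of RGS proteins, had 7.44 (chromosome 9, 75327133 to 75327269, FDR 100%). No site was listed for Gnb2, Gnb3 or Gnb4, nor for Gnb1l, which matches the symbol pattern but is not a beta subunit.

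The gamma subunits anchor the beta subunit to the membrane. Their genes carried weak sites in 2 of 10 cases (20%, beside 22.2% of all protein-coding genes). Gng10 had a fold of 5.72 over its start (chromosome 4, 59035111 to 59035318), and Gng12 had 2.83 (chromosome 6, 67015725 to 67015843), the lowest of all member sites. Gng2, Gng3, Gng4 and Gng5 were among the 8 without a site. The median annotated span of this family was 6226 bases, against 57776 bases over all family genes.

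RGS genes had a site in 5 of 23 cases (21.7%), beside 22.2% of all protein-coding genes. The 23 include Rgs7bp and Rgs9bp, which match the symbol pattern but are anchors and not RGS proteins. Rgs7, a neuronal and endocrine RGS protein that binds Gnb5, had 2 sites near its 5′ end, with folds of 14.54 (chromosome 1, 175491053 to 175491176, FDR 76.01%) and 10.90 (chromosome 1, 175492261 to 175492545, FDR 100%). Rgs9, which also binds Gnb5 and is known from phototransduction, had 4 sites with folds of 9.87, 8.35, 6.98 and 4.06, each with an FDR of 100%. The strongest Rgs9 site lay 7 bases inside the 3′ end of the span (chromosome 11, 109225355 to 109225776). Gnb5 and these 2 partners thus each had a site, while Rgs6 and Rgs11, the other members of that subclass, had none, as did the anchors Rgs7bp and Rgs9bp. This grouping, with Rgs11, Rgs7bp and Rgs9bp, was chosen after the values were seen.

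Rgs3, which acts on inhibitory and phospholipase-coupled alpha subunits, had folds of 7.26 (chromosome 4, 62674039 to 62674310) and 5.4, the weaker one on 1128 bases with an FDR of 86.99%. Rgs12, a large scaffolding RGS protein, had 6.14 on 1983 bases. Rgs5, known as a marker of pericytes, had 4.06 on 62 bases. Rgs1, Rgs2, Rgs4 and Rgs6 were among the 18 without a site.

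Adenylyl cyclases were the family with the lowest share, 1 of 10 (10%, beside 22.2% of all protein-coding genes). The site was on Adcy5, a cyclase inhibited by calcium, with a fold of 11.98 on 780 bases that began 1198 bases past the start (chromosome 16, 35156062 to 35156841) and an FDR of 100%. Adcy1, Adcy2, Adcy3 and Adcy4 were among the 9 without a site.

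Phosphodiesterase genes had a site in 10 of 26 cases (38.5%), beside 36.6% over all 10 families and 22.2% of all protein-coding genes. Their 21 sites had a median fold of 6.12. A fold of at least 10 was reached by 2 of the 21, on Pde1b and Pde4dip (9.52%, beside 24.6% of all sites). Pde1b, an enzyme activated by calcium and calmodulin, had a fold of 17.22 on 1243 bases that ended exactly at the 3′ end of the span (chromosome 15, 103528814 to 103530056) and an FDR of 49.73%. Its relative Pde1c had 8.66 (chromosome 6, 56126859 to 56127080) and 4.86. Pde3b, known as a cAMP phosphodiesterase of beta cells, had 5.99 with an FDR of 80.69%, and Pde3a had 6.45.

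Among the other cyclic nucleotide phosphodiesterases, Pde10a had 7.08 and 4.86, the high-affinity cAMP enzyme Pde8a 6.79 and 5.81, the cGMP enzyme Pde5a 4.16 and the cAMP enzyme Pde4b 4.09, each with an FDR of 100%. Pde12 had 5.55 on 1495 bases, and its product acts on mitochondrial RNA rather than on cyclic nucleotides. Pde4dip encodes myomegalin, a centrosome and Golgi protein that binds phosphodiesterase, and held 9 of the 21 sites. Its folds ran from 4.11 to 12.90 (strongest at chromosome 3, 97793145 to 97793320), every one with an FDR of 100%. Pde1a, Pde2a, Pde4a and Pde4c were among the 16 genes without a site.

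AKAP genes had 25 sites on 10 of 16 genes (62.5%, beside 22.2% of all protein-coding genes). The FDR was below 100% for 9 of the 25 sites (36%), beside 25.7% of all sites, and 4 of the 9 were on Akap9. Of the 25, 5 reached a fold of at least 10 (20%, beside 24.6% of all sites). Akap9, the large centrosomal and Golgi anchor, held 12 sites with a median fold of 7.125. Its strongest had 16.09 (chromosome 5, 4060282 to 4060495, FDR 44.64%), and its site over the start had 7.01. The longest Akap9 site, 1044 bases, had a score of 1733.14 with a fold of 7.24, the highest score and a middle fold of this gene. Akap17b had 10.54 on 131 bases (chromosome X, 36618603 to 36618733, FDR 100%).

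Akap12, the plasma membrane scaffold gravin, had 1 site of 4798 bases (chromosome 10, 4353142 to 4357939). It was the longest member site, and its fold of 10.17 came with a score of 2010.39 and an FDR of 38.86%. Akap7, which anchors the kinase at membranes and channels, had 10.06 and 9.48, and Akap13, a large scaffold, had 9.55, 8.90 and 6.72. The mitochondrial anchors Akap10 and Akap1 had 7.28 and 5.99. Akap2 had 6.66 on 2645 bases, Akap11 had 6.44 and Akap6, an anchor at the nuclear envelope of muscle, had 6.31 and 5.31. Akap2 is annotated as part of Pakap. Akap3, Akap4, Akap5 and Akap8 were among the 6 without a site.

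**Figure D3:**
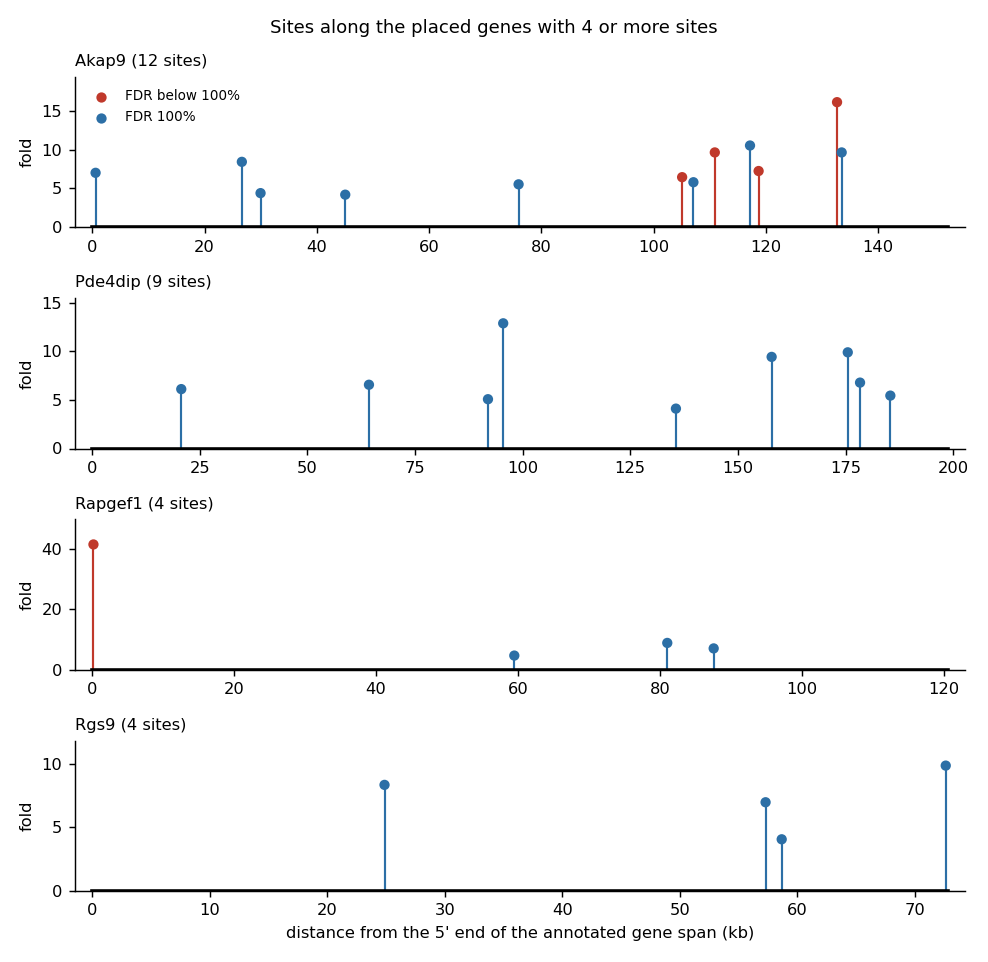
Fold of each site against its distance in kb from the 5′ end of the annotated span, for the 4 placed genes with 4 or more sites, with red for an FDR below 100% and blue for 100%. The Rapgef1 site at the start reaches 41.56 with the other 3 at 8.87 or lower, whereas the highest Akap9, Pde4dip and Rgs9 sites, at 16.09, 12.90 and 9.87, lie away from the 5′ end.

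RAPGEF proteins activate Rap GTPases. Rapgef1, which is not a cAMP sensor and links receptor signals to Rap, had 4 sites. The one that begins at its first annotated base had a fold of 41.56 on 344 bases (chromosome 2, 29619720 to 29620063), a score of 1584.15 and an FDR of 44.16%, and ranked 43rd among all sites. The other 3 had 8.87, 7.05 and 4.67, each with an FDR of 100%. Rapgef6 had 10.33 (chromosome 11, 54626585 to 54626737), 5.54 and 4.65, and Rapgef2 had 5.35 (chromosome 3, 79103963 to 79104140). Rapgef3 and Rapgef4, the exchange factors that cAMP activates directly, had no site in the list, nor had Rapgef5.

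The transcriptional end of the pathway had sites on 3 of 7 CREB and 2 of 3 CRTC genes. These shares were 42.9% and 66.7%, beside 22.2% of all protein-coding genes. Creb1, the cAMP-responsive factor itself, had a fold of 13.45 at its start (chromosome 1, 64532804 to 64533020, FDR 65.74%) and 5.17 at an interior site. Creb3l2, a membrane-bound factor of the endoplasmic reticulum, had 14.67 (chromosome 6, 37355643 to 37355789, FDR 59.80%). Its relative Creb3l1 had 4 sites of 10.02, 6.94, 6.11 and 4.27, the strongest at chromosome 2, 91982470 to 91983007. The coactivators Crtc3 and Crtc1 had 9.81 (chromosome 7, 80688607 to 80688877) and 8.33 (chromosome 8, 70439433 to 70439579) over their starts, both with an FDR of 100%, and Crtc1 had a second site of 4.30. Creb3, Creb3l3, Creb3l4, Creb5 and Crtc2, a coactivator known to act in beta cells, had none.

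In all, 45 of the 123 annotated protein-coding genes of the 10 families had a site (36.6%), beside 22.2% of 21900 protein-coding genes. Families were counted by symbol. Leaving out symbols of other proteins, an alternative chosen after seeing the data, gave 36.2% of 116 genes. The median span was 102 kb for family genes with a site and 43.6 kb for those without, against 37.5 kb and 13.3 kb for all protein-coding genes with and without a site. Families did not all follow this order. In Gna and Rapgef the genes with a site had the shorter median span, 38576 against 62425 bases and 176478 against 243212 bases. Across families, Adcy had a median span of 104167.5 bases and the lowest share, and Akap had 41014 bases and a share of 62.5%. The part of gene span and of input level in the share was not tested. The median strongest fold per gene was 8.66 over the 45 member genes, against 8.10 over all 4953 genes. This order turned with an FDR below 100% (12.4 against 13.2) and with each gene's median fold (6.76 against 7.16). Further, 19 member genes (42.2%) reached a strongest fold of 10, beside 34.1% of all genes with a site. A single site was found on 25 of the 45 (55.6%), beside 59.7% of all genes with a site. Sites over 1000 bases made up 8 of the 90 (8.89%), beside 9.97% of all sites, and were on Akap12, Akap2, Rgs12, Akap1, Pde12, Pde1b, Rgs3 and Akap9.

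Other genes of the pathway were counted from 6 lists, and 39 of 71 (54.9%) had a site, beside 22.2% of all protein-coding genes. The lists were chosen with earlier results of these data known. Protein kinase A had a site on 10 of 10 subunit and inhibitor genes, led by the catalytic subunits Prkaca (81.77) and Prkacb (30.69) and the regulatory subunit Prkar2b (15.89). The Prkaca site also covers a start, as the Gnb1 site does. Of 26 G protein-coupled receptors 9 had a site, led by Lgr4 (17.98), the somatostatin receptor Sstr3 (9.71) and the muscarinic receptor Chrm3 (9.69), with none on the incretin receptors Glp1r and Gipr or the glucagon receptor Gcgr. Receptor kinases and arrestins had 4 of 7, with Grk2 at 18.99, Grk3 at 14.16 and Grk6 at 6.54, and none on Grk4, Arrb1 and Arrb2.

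CREB partners and CRTC kinases had 7 of 10, with Crebl2 at 13.89, the acetyltransferase Crebbp at 12.24 and Crebzf at 8.64, and none on Crem, Atf1 and Sik1. Phospholipase C effectors had 4 of 5, with Plcb1 at 12.24, Plcb3 at 10.35 and Plcb4 at 9.80, and none on Plcb2. Other G protein regulators had 5 of 13, with Arhgef1 at 9.28, the alpha subunit chaperone Ric8b at 9.21 and Arhgef12 at 8.90, and none on Ric8a, Gpsm1 and Gpsm2.

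**Figure D4:**
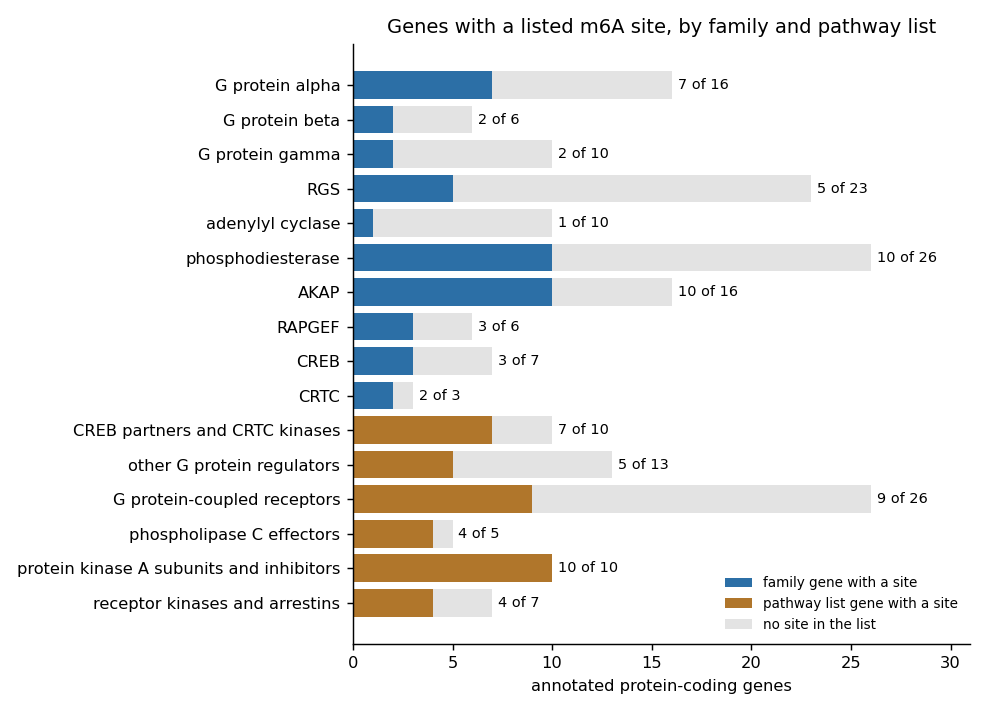
Number of annotated protein-coding genes with a listed site (coloured) and without (grey) in each of the 10 families (blue) and 6 pathway lists (brown). Adenylyl cyclases have 1 of 10 and AKAPs 10 of 16, while protein kinase A subunits and inhibitors have 10 of 10. Over all protein-coding genes the share with a site is 22.2%.

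The authors' deposited table also assigns KEGG pathways, which are built partly from these families, so the counts are a description of the annotation. Of 30 member genes with any pathway, 9 were placed in cAMP signalling (Adcy5, Creb1, Creb3l1, Creb3l2, Gnai1, Gnai2, Pde3a, Pde3b and Pde4b), beside 3.64% of all 1729 genes with a site and a pathway. The cGMP-PKG pathway held 12 of the 30 (3.53% of all), and insulin secretion held 6 (Adcy5, Creb1, Creb3l1, Creb3l2, Gna11 and Gnaq, 1.56% of all). Pathways named for other tissues held as many or more in the same table, with 14 in morphine addiction (1.5% of all) and 12 in cholinergic synapse (2.31% of all).

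The islet label was set against marker genes. A site was listed for 3 of 10 beta cell markers (Mafa, Chga and Chgb), 0 of 3 delta cell and 0 of 2 PP cell markers, and none for the hormone genes Ins1, Ins2, Gcg, Sst and Ppy. Markers of other cells in the preparation had sites in 5 of 7 endothelial, 4 of 7 duct, 2 of 8 acinar, 2 of 6 fibroblast and stellate, 1 of 5 leukocyte and 1 of 6 glial and neuronal genes. The shares for beta cell (30%), acinar (25%), leukocyte (20%) and glial and neuronal (16.7%) genes lay near the 22.2% of all protein-coding genes. A site list gives no RNA level, so from which cells the member transcripts came was not tested.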

How the data were processed

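The submitters' processing notes name cutadapt 1.9.3 and HISAT2 2.0.4. Sites were called with MACS, per the labels' protocols, in a version not given in the sources used here. HG19 stands in the protocol and mm10 in the notes. Of 8942 sites matched to a gene of the GRCm38.p6 table, 8924 (99.8%) overlapped its span, so positions are given as GRCm38, counted from 1. The deposited fold is a linear ratio, the deposited score comes from the caller's p, and the deposited FDR was read as percent. None was recomputed.

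Members were selected by symbol in Python 3.11.15 with pandas 2.3.3. All 90 sites matched a gene, 89 by gene identifier and Akap2 by synonym. A site covers a start when the annotated base lies within it. Position classes were tested on simulated sites, planted on long genes with a single annotated start at the end of the span. Genes with several or internal starts were not covered by this test. The symbol pattern was checked on a set of gene names against the same pattern, which could hardly fail. The result of 1 marker list is not reported here. The members and all lists were chosen with earlier results of these data known. Every member gene is named with its folds, except that only some folds are given for Akap9 and the range for Pde4dip. Full values were to be given, per family, for the 3 genes with the largest strongest fold, the one with most sites and all with at least 4 sites, and up to 4 genes without a site were to be named. For genes with at least 4 sites, not every site was given with its position. Members or genes without a site described beyond that were chosen with their values in view. With 1 library per group no test was made. The design's limits on fold, score and FDR were varied.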

Additional observations from a re-analysis of the deposited data

How the results depend on the processing

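Of 28 alternatives over 10 results, 18 left a value within its 95% interval (binomial, over sites or genes) or a count within 1.5 times. The interval treats sites or genes as independent units, although many sites share a gene. With 1 library per group it is not a replicate error. Stricter limits keep stronger sites by construction. With a score of at least 100, 52 of the 90 member sites were kept, their median fold was 9.63 (8.72 for all sites) and 26.8% of family genes had a site (15.4% of all protein-coding genes). With an FDR below 100% the median fold was 11.1 (12.2 for all sites), the median strongest fold per gene 12.4 (13.2) and the share of family genes 14.6% (7.29%), so both medians of the members lay below those of the list here. Taking each gene's median fold instead gave 6.76 (7.16), also below. A fold of at least 8 was reached by 41.1% of member sites (39.9% of all), one of at least 15 by 7.78% (9%), and an FDR below 50% by 6.67% (4.86%). Sites at a start had a median fold of 9.81 without Gnb1 and 11.1 with the edge exactly at the start, alternatives chosen after seeing the data. No overlapping or adjoining sites existed to merge, so that alternative, counted among the 18, could not change a value. No paired analysis was possible because each group has 1 library. Read depth is unknown, so no fold carries an error.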

Other observations

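In 2 pairs, member genes lie within 1000 kb of each other. The spans of Rgs9 and Gna13 on chromosome 11 are 64.6 kb apart, and both carried sites, with strongest folds of 9.87 and 11.08. Crtc3 and Pde8a on chromosome 7 are 524 kb apart, with strongest folds of 9.81 and 6.79. In 4 member sites, on Gna13, Gnaz, Pde12 and Pde4dip, the site also lay within the span of another annotated gene, and for these the gene of origin rests on the authors' assignment. These pairs and overlaps were picked out after the values were seen.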
